A study of Homo sapiens with 12 samples.

Results

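The genes described here encode the proteins of the cytosolic ribosome, read from RNA-seq of human cells, labelled as neurons, in which the transcript of ZCCHC17 was lowered with an siRNA. They were taken by symbol: RPL or RPS followed by a number and at most an A or X, together with RPLP0, RPLP1, RPLP2 and RPSA, with a mean raw count of at least 50 over the libraries. All 77 symbols that match passed the minimum, of 59653 symbols in the table, and none lay near it, since the lowest, RPS10, had a mean of 225.4 counts. The large subunit accounts for 46 of them (RPL) and the small subunit for 31 (RPS).

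The labels call the cells neurons, made from induced pluripotent stem cells that go back to IMR-90, a human fibroblast line. In both groups cells were given an siRNA: the siNC group, of 6 libraries, had a negative control siRNA, and the siZCC group, also of 6, had one that targets ZCCHC17. No genotype, time point or dose is stated, and all libraries come from 1 line. NPC stands in the sample titles without an explanation, although the remaining labels say neuron. Nothing says that the libraries of a group are separate cultures, so p-values measure the spread between these samples, which may be technical.

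A ribosome holds 1 copy of nearly every one of its proteins, and cells keep the proteins of both subunits in balance. Human ribosomal protein mRNAs are short and abundant. Most begin with a C followed by a run of pyrimidines, the 5′ terminal oligopyrimidine (TOP) motif, through which LARP1 and the mTOR pathway control their translation and stability together. Many of the genes also carry small nucleolar RNAs in their introns. ZCCHC17 is itself an RNA-binding protein of the nucleolus that has been described in association with the large ribosomal subunit.

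The start sites are shown first because the TOP motif is what most of these mRNAs share. The windows below are from RefSeq (GRCh38.p14) and run from 15 bases before the start to the 15th base from it, 5′ to 3′ on the gene's strand, so the first transcribed base is the 16th letter. Capitals mark the pyrimidine run at the start, or the longest one near it. They cover genes with large changes in either subunit, a pair whose difference was not called (RPL26 and RPS10), and RACK1 and EEF2, which are not named RPL or RPS but have the same kind of start.
RPL3, chr22:39319609-39319638, minus strand: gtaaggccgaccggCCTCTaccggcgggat
RPL13A, chr19:49487593-49487622, plus strand: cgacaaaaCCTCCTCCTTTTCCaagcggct
RPL38, chr17:74203663-74203692, plus strand: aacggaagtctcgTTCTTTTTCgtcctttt
RPL31, chr2:101002274-101002303, plus strand: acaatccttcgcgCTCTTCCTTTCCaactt
RPLP0, chr12:120201097-120201126, minus strand: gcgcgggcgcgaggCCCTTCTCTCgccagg
RPLP1, chr15:69452803-69452832, plus strand: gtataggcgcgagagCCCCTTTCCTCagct
RPS3A, chr4:151099613-151099642, plus strand: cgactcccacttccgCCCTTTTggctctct
RPS27, chr1:153990747-153990776, plus strand: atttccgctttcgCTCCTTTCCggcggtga
RPS24, chr10:78033848-78033877, plus strand: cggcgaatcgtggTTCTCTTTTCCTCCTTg
RPL26, chr17:8383179-8383208, minus strand: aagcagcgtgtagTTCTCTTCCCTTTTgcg
RPS10, chr6:34426055-34426084, minus strand: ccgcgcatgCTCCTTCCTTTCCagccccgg
RACK1, chr5:181243892-181243921, minus strand: ggggggCTTTTCTCTCTCTCTTTCactgca
EEF2, chr19:3985449-3985478, minus strand: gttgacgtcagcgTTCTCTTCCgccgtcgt

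The table of promoters held 62 of the 77 genes (38 RPL, 24 RPS). RPL3, RPL13A and RPLP0 are among these 62, while RPL5, RPL7, RPL8, RPL23, RPL23A, RPL30, RPL37, RPS2, RPS15A and RPS20 are not. A start with a C followed by at least 4 pyrimidines was found in 46 of the 62, or 74.2%, at 28 of 38 RPL and 18 of 24 RPS. The same start was found in 6.5% of 13278 other genes tested and in 5.1% of all 27305 genes of the table. RPL3, whose change was the largest of any member, falls outside this definition: its run from the first base is CTCT. RPL26 and RPS10, whose levels did not differ detectably, both meet it. These 2 were counted at only 20.65 and 2.228 CPM on average in siNC, so they say little about the motif.

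Other words were searched in the 250 bases before and 50 after each start, on both strands. CCGGAAG, a word like the ETS factor site, occurred in 35.5% of the 62 genes, against 18.9% of other genes tested. AAGATGGC, like the YY1 site, occurred in 9.7% against 5.4%, and TATAAA in 8.1% against 9.5%. A match is a word in this window and not a measured binding site.

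The libraries held 90755953 to 120023356 counts in siNC and 76115083 to 105389055 in siZCC. ZCCHC17 itself had a median of 57.21 counts-per-million (CPM; 53.99 to 60.99) in siNC and 9.847 CPM (9.371 to 10.62) in siZCC, with a log2 fold change of -2.51 (SE 0.0402; Benjamini-Hochberg adjusted edgeR quasi-likelihood p 3.52e-17). The 10 neuron markers summed to 2910 to 3290 CPM in siNC and 2650 to 3000 CPM in siZCC. Among them MAP2 averaged 1027 CPM in siNC and STMN2 483.6, but TUBB3 only 14.24 and RBFOX3, a marker of mature neurons, 1.271. Markers of radial glia and progenitors (6 genes) summed to 5640 to 6030 and 5700 to 6230 CPM, more than the neuron markers, with VIM at 3550 and SOX2 at 621.2 CPM in siNC. Levels within each list were uneven. NEFL, SNAP25 and SYP, also neuron markers, averaged 256.9, 91.37 and 89.13 CPM in siNC. VIM and NES (1118 CPM in siNC) made up most of the progenitor sum, while PAX6 averaged 63.92 CPM. RBFOX3 was thus low, but MAP2 stood above SOX2, and the sums do not give the stage of the cells. Astrocyte markers (5 genes) summed to 1120 to 1290 and 1200 to 1460 CPM. Markers of dividing cells (4 genes) summed to 469 to 543 and 357 to 425 CPM, and those of fibroblasts or mesenchyme (4 genes) to 91.6 to 321 and 49 to 165 CPM. Oligodendrocyte lineage markers (3 genes) summed to at most 4.75 CPM, and microglia markers to at most 0.508 CPM, with AIF1 and CX3CR1 too low to be tested. Pluripotent markers (2 genes) summed to 11 to 12.5 and 12.2 to 13.5 CPM, nearly all of it NANOG (11.04 and 12.2 CPM on average), while POU5F1 was at 0.718 and 0.8234 CPM.

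Ribosomal protein mRNAs of both subunits were slightly higher in siZCC. Of the 77 genes, all of which entered the test, 48 were higher at an adjusted p under 0.05 (62.3%) and 0 were lower, by the quasi-likelihood test of edgeR, Benjamini-Hochberg adjusted over 24671 genes. Over all of these, 11.4% of genes were called higher and 10.8% lower, or 22.2% in either direction. The median log2 fold change was 0.12 (1.085-fold), against -0.00164 over all genes tested, and 72 of the 77 values were positive. At an unadjusted p under 0.05 the number lower was also 0, and the Wald test of DESeq2 and limma voom likewise called 0 lower. These are bulk samples, in which more cells of a kind and more RNA per cell cannot be told apart. Marker levels moved with the groups: 4 of 4 dividing-cell markers and 4 of 10 neuron markers were lower and none higher in siZCC, while 2 radial glia markers were higher and 1 lower, and 2 astrocyte markers were higher and 1 lower. In the other lists, 2 of 4 fibroblast markers and 1 of 3 oligodendrocyte lineage markers were lower, 1 of 2 pluripotent markers, NANOG, was higher, and the 1 microglia marker tested was not called. Their part in the ribosomal protein result was not tested.

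The contrast with other genes was also seen among abundant genes alone. At a mean of 100 CPM or more, 47 of 69 ribosomal protein genes were called higher (68.1%), with a median log2 fold change of 0.12, against 530 of 2423 other genes (21.9%), with a median of 0.02. Over all 2492 genes at that level 23.2% were called higher and 12.8% lower. Ribosomal protein mRNAs are also short. Among genes with transcripts under 1 kb, the 70 ribosomal protein genes had a median of 0.12 and other genes of at least 100 CPM a median of 0.01.

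**Figure D1:**
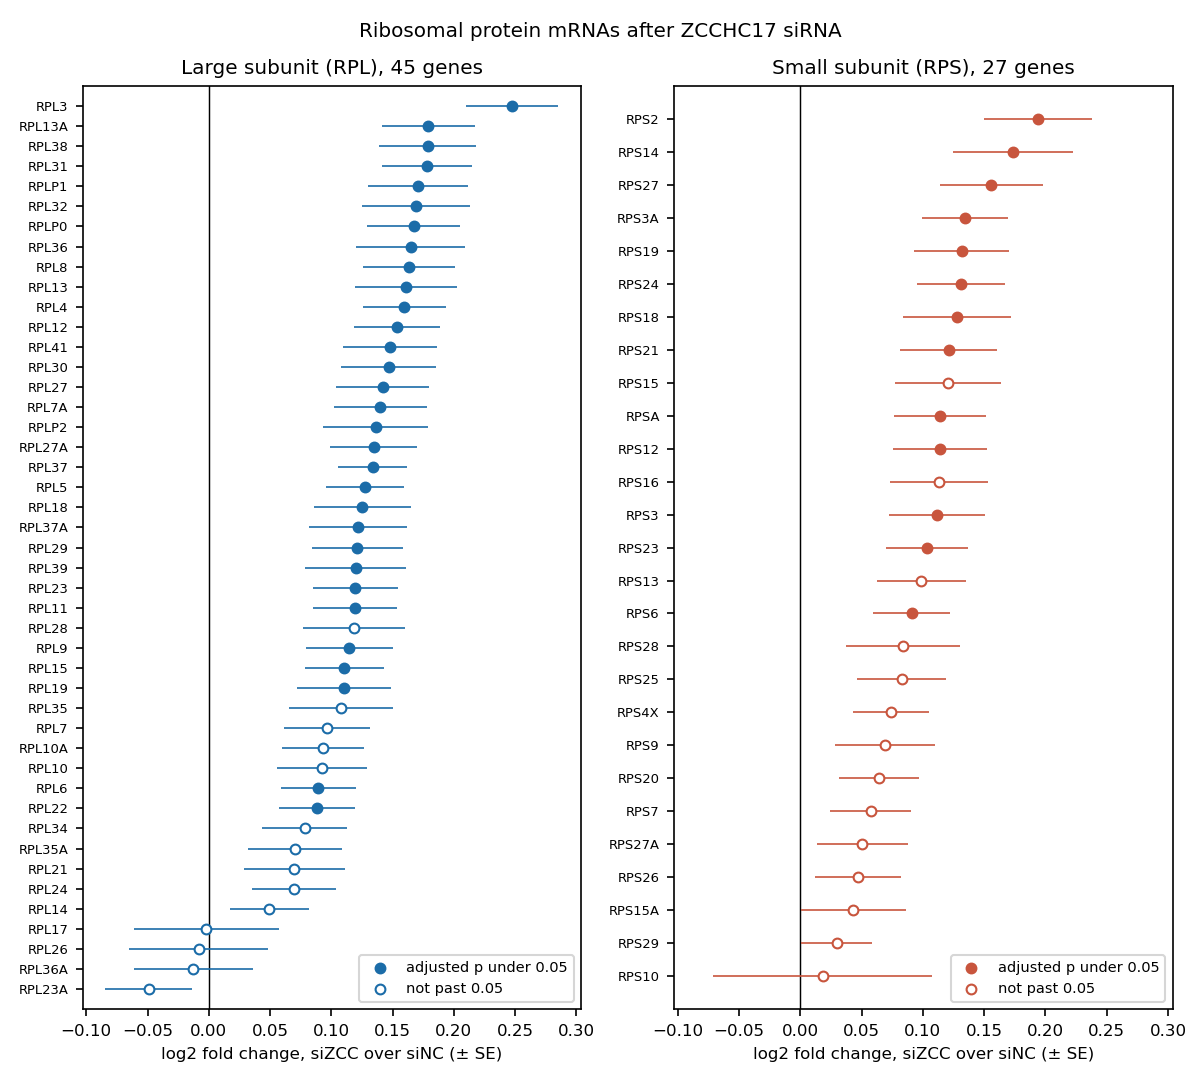
Log2 fold change (siZCC over siNC, horizontal axis) of 45 RPL and 27 RPS genes, ordered by size, with SE bars; filled points passed an adjusted p of 0.05. In both panels nearly all points lie right of 0, between 0 and 0.25, and no gene left of 0 is filled.

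The median change was similar in both subunits. Of 46 RPL genes 32 were higher (69.6%), with a median log2 fold change of 0.12 and a range of -0.05 to 0.25. Of 31 RPS genes 16 were higher (51.6%), with a median of 0.11. The medians differed by 0.00971 on the log2 scale, which is smaller than the SE of any single gene. That SE also holds spread between libraries that both subunits share, so it does not measure the spread of their difference. This difference lay between 0.0149 and 0.0237 when any 1 of siNC replicates 2, 3 or 5 or siZCC replicates 1, 2, 4, 5 or 6 was left out. No test between the subunits was made, since the genes were chosen with earlier results of these data known.

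Library by library, the mean log2 CPM of the RPL genes was 8.02 to 8.18 in siNC (mean 8.09 ± 0.0665, SD, n = 6) and 8.13 to 8.27 in siZCC (8.21 ± 0.0476, SD, n = 6). That of the RPS genes was 7.74 to 7.91 in siNC (7.82 ± 0.0722, SD, n = 6) and 7.83 to 7.98 in siZCC (7.92 ± 0.0501, SD, n = 6). In RPL, 5 of 6 siZCC libraries lay above every siNC library, and in RPS 3 of 6, so the groups overlapped in both. RPL minus RPS within a library was 0.27, 0.28, 0.26, 0.28, 0.30 and 0.28 in siNC replicates 1 to 6, and 0.30, 0.30, 0.29, 0.30, 0.29 and 0.29 in siZCC replicates 1 to 6. The difference between subunits was thus 0.0185 larger on average in siZCC, with siNC replicate 5 inside the siZCC range. Its SD was 0.0127 in siNC and 0.00465 in siZCC (n = 6 each). With the median over genes in place of the mean the difference was 0.0548 larger in siZCC. Measured as reads, the genes took 2.63% to 2.964% of counts in siNC (2.774% ± 0.14, SD, n = 6) and 2.824% to 3.119% in siZCC (2.988% ± 0.102, SD, n = 6). The ratio of RPL to RPS counts was 1.667 ± 0.0139 and 1.684 ± 0.0149 (SD, n = 6 each).

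**Figure D2:**
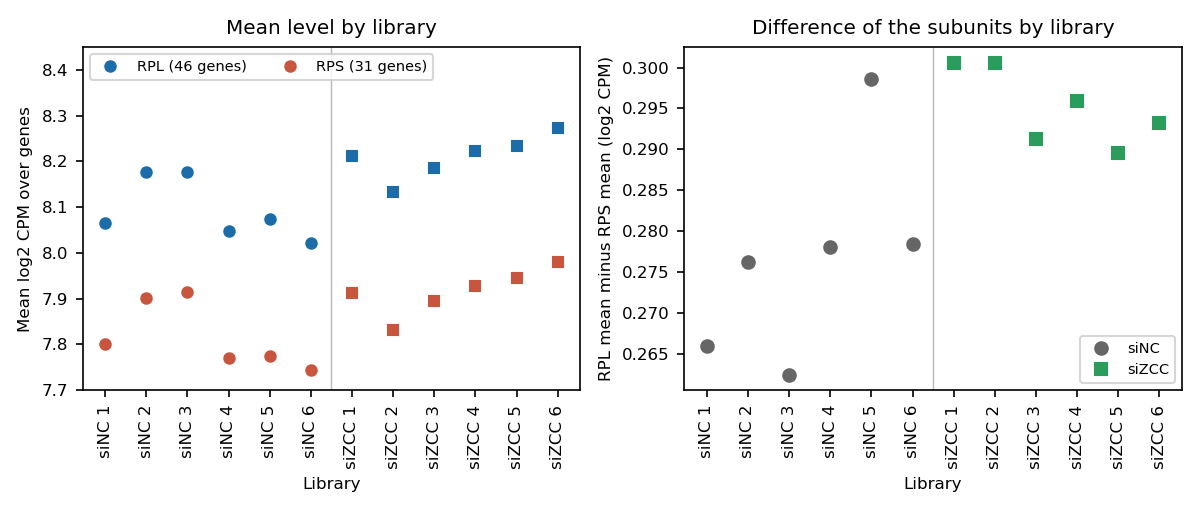
Left, mean log2 CPM over the 46 RPL (blue) and 31 RPS (red) genes in each library, circles for siNC and squares for siZCC; right, the RPL mean minus the RPS mean in each library. In both subunits siNC 2 and siNC 3 stand above the other siNC libraries and siZCC 2 is the lowest siZCC library; on the right siNC 5 lies within the siZCC values.

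The genes moved together from library to library, also within a group. In 76 of 77 genes the highest siNC library was replicate 2 or 3, and in 65 the lowest was replicate 4 or 6. Within siZCC, replicate 2 was lowest in 61 genes and replicate 6 highest in 50. In 59 genes both siNC 2 and siNC 3 lay above siZCC 2. The median correlation of a pair of genes after removing the group means was 0.805 over 2926 pairs (0.798 within RPL, 0.818 within RPS and 0.802 between them), a description over 12 libraries whose depth and scaling all pairs share. The SD of their mean within groups was 0.0594, against a median SD of 0.0717 for single genes.

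The groups rarely separated in single genes. RPL3 was the only gene in which all 6 siZCC libraries lay above all 6 siNC libraries, 1 of 77, while 5.25% of all genes tested separated in this direction. No gene separated in the other direction, in which 4.5% of all genes tested did. In 16 genes 5 siZCC libraries exceeded all siNC, in 28 genes 4, in 9 genes 3 and in 23 genes 2 or fewer. The number of calls likewise rested on single libraries. It fell to 30 of 77 without siNC 4, without siNC 6 or without siZCC 6, and reached 57 without siNC 3. In RPL it fell to 21 without siNC 4. In RPS it was 8 to 10 without any 1 of siNC 1, 4, 5 or 6 or of siZCC 1, 4, 5 or 6. The median log2 fold change stayed between 0.100 and 0.137 in these fits, and no member was called lower in any. Over all genes, 9.19% to 11.7% were called higher in the same fits.

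The 12 libraries also divide by IL1B, a cytokine transcript with a log2 CPM of 2.39 to 4.0 in siNC 2, 3 and 6 and siZCC 1, 4 and 5, and of -4.57 to -3.06 in the others. Within the high libraries, 3 against 3, the median log2 fold change was 0.0958 and 4 genes were called higher (4 RPL, 0 RPS), or close to the 4.22% of all genes called higher there. Within the low libraries, also 3 against 3, the median was 0.142 and 13 were called (10 RPL, 3 RPS), where 3.5% of all genes were. With the division as a term in the fit of all 12 libraries, 51 genes were called (33 RPL, 18 RPS), against 11.8% of all genes. Of the members named below whose difference was called, RPL5, RPL11 and RPS3A moved by over 1.5 times in a subset: in the high libraries their log2 fold changes were 0.0739, 0.0674 and 0.0776 and were not called, and in the low libraries 0.179, 0.17 and 0.188, where RPL5 and RPS3A were called and RPL11 was not (adjusted p 0.0518 in edgeR's quasi-likelihood test, and 0.00642 to 0.382 over its alternatives).

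**Figure D3:**
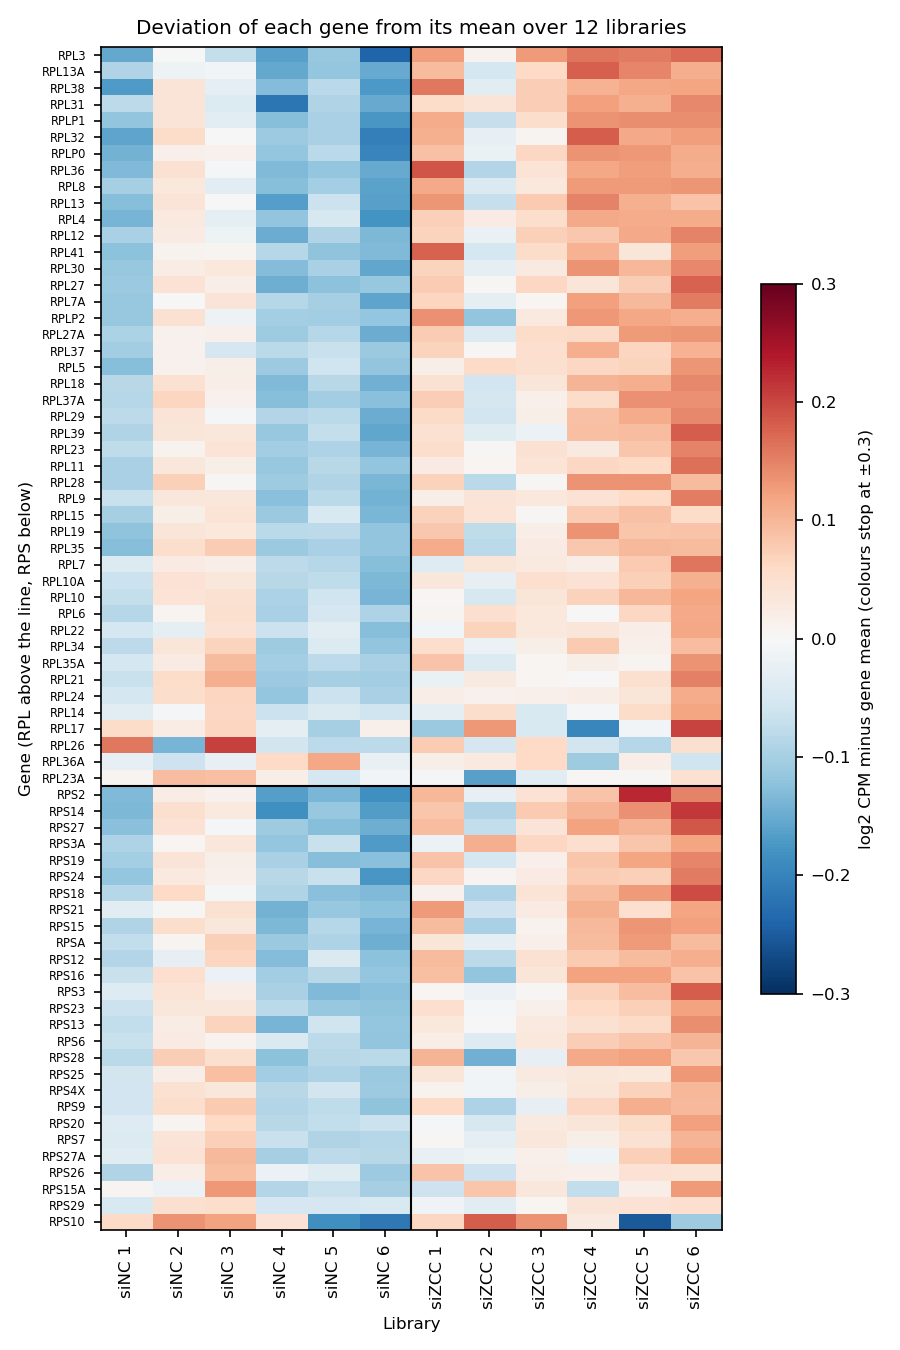
Each row is 1 of 72 genes (RPL above the line, RPS below, ordered by fold change) and each column a library; colour gives log2 CPM minus the gene's mean over 12 libraries. The siZCC columns are mostly red and the siNC columns mostly blue, with siNC 2, siNC 3 and siZCC 2 pale or of the opposite colour to their groups in most rows, and RPL17, RPL26, RPL36A, RPL23A and RPS10 off the common pattern.

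By role in the large subunit, all 4 proteins of the stalk and its base were higher, with a median log2 fold change of 0.16. The stalk is the mobile arm that recruits elongation factors and stimulates their GTPase. RPLP0, its central post, stood at 905.7 to 1050 CPM in siNC (median 970) and 1024 to 1140 in siZCC (median 1112). Only siZCC 2 lay inside the siNC range, and its log2 fold change was 0.17 (SE 0.0381; Benjamini-Hochberg adjusted edgeR quasi-likelihood p 0.00459). RPLP1, one of the acidic proteins held by RPLP0, ran from 398 to 461.8 CPM in siNC (median 417.1) and from 428.5 to 495.3 in siZCC (median 489.6), a log2 fold change of 0.17 with 5 siZCC libraries above all siNC. RPLP2, the partner of RPLP1, ran from 231.5 to 258.9 CPM (median 233.7) and from 231.2 to 275.8 (median 271.4). Its lowest siZCC library lay below all siNC libraries and 4 lay above them all. Its log2 fold change was 0.14, with an adjusted p of 0.0294 in edgeR's quasi-likelihood test that rose above 0.05 without any 1 of siNC 1, 4, 5 or 6 or siZCC 1, 4, 5 or 6 (0.00217 to 0.0688 over the 12 such fits). RPL12, at the foot of the stalk, had a log2 fold change of 0.15, from a median of 248 CPM (238.8 to 269.4) to 279 CPM (261.3 to 293.3).

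Both partners of 5S ribosomal RNA were higher. RPL5 and RPL11 form with 5S RNA a particle that enters the large subunit and that, when free, binds the p53 regulator MDM2. RPL5 went from a median of 490.6 CPM (476 to 526.5) to 542.3 CPM (526.1 to 570.2), a log2 fold change of 0.13. RPL11 went from 324.7 CPM (318.4 to 353.5) to 357.9 CPM (347.2 to 387.3), a log2 fold change of 0.12. The groups overlapped in each.

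Near the peptidyl transferase centre, where peptide bonds form, 2 of 3 genes were higher. RPL3, which reaches towards that centre, showed the largest change of any member. Its gene lies on chromosome 22 from 39312882 to 39320389, minus strand (GENCODE v29, GRCh38), with 3 small nucleolar RNAs in it. RPL3 stood at 981.2, 1091, 1040, 974.8, 1009 and 924.2 CPM in siNC replicates 1 to 6 and at 1191, 1099, 1193, 1220, 1216 and 1228 CPM in siZCC replicates 1 to 6. Every siZCC library was above every siNC library, though siZCC 2 exceeded siNC 2 by little. The log2 fold change was 0.25 (SE 0.0376; Benjamini-Hochberg adjusted edgeR quasi-likelihood p 2.05e-04). It was 0.245 within the high-IL1B libraries and 0.247 within the low ones. RPL8 was the other gene called (log2 fold change 0.16), and RPL10 was not (0.09, adjusted p 0.0826 in the same edgeR test).

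Of the exit tunnel wall genes 2 of 3 were higher. RPL4, whose long loop lines the tunnel through which the nascent chain leaves, went from a median of 843.4 CPM (788.8 to 911.1) to 951.3 CPM (908.3 to 967.3), a log2 fold change of 0.16 with 5 siZCC libraries above all siNC. RPL39 was also called and RPL17 was not. At the rim of the tunnel exit, where chaperones and targeting factors dock, 2 of 5 were called, RPL31 and RPL19. RPL31 went from 249.1 CPM (227.4 to 271.5) to 281.2 CPM (271.3 to 291.9), a log2 fold change of 0.18 (SE 0.0369; Benjamini-Hochberg adjusted edgeR quasi-likelihood p 0.00237). RPL35 (0.11), RPL26 (-0.01) and RPL23A (-0.05) were not called.

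RPL23A, the docking point of the signal recognition particle, is on chromosome 17 from 28719393 to 28724359, plus strand. It was at 249.7, 264.7, 264.3, 251.5, 239.6 and 246.9 CPM in siNC replicates 1 to 6 and at 247.5, 221.9, 242.4, 248.9, 248.9 and 256.5 CPM in siZCC replicates 1 to 6. The groups overlapped, with siZCC 2 below the siNC range, and the log2 fold change was -0.05 (SE 0.0354; Benjamini-Hochberg adjusted edgeR quasi-likelihood p 0.358). Of the 69 members averaging 100 CPM or more it was the only one below 0, and it stayed below 0 in each fit without 1 library (-0.0675 to -0.0226). RPL23A also has the most pseudogene rows of the table, 91, and their counts sum to 28.7% of its own. Whether reads are shared between them was not tested.

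Of the remaining 29 RPL genes, which belong to none of these groups, 20 were higher, with a median of 0.12 and a range of -0.01 to 0.18. RPL13A, a surface protein also known for its release from the ribosome in the interferon-gamma response, went from a median of 924.3 CPM (891.6 to 986.3) to 1065 CPM (956.1 to 1123), with 5 siZCC libraries above all siNC. The log2 fold change of RPL13A was 0.18 (SE 0.0382; Benjamini-Hochberg adjusted edgeR quasi-likelihood p 0.00291). RPL38, known from mouse for selective translation of Hox mRNAs, went from 148.4 CPM (141.7 to 163.9) to 172.2 CPM (156.1 to 178.2), a log2 fold change of 0.18. RPL37, a small zinc-binding protein, went from 331.4 CPM (323 to 351.9) to 365.3 CPM (350 to 376.2), a log2 fold change of 0.13. RPL15, one of the genes mutated in Diamond-Blackfan anaemia, went from 729.8 CPM (698 to 789.7) to 801.3 CPM (769.8 to 816), a log2 fold change of 0.11 whose adjusted p in edgeR's quasi-likelihood test moved from 0.0202 to 0.0516 without siNC 4 (0.00595 to 0.0516 over the 12 fits without 1 library).

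In the small subunit, 11 of 17 genes of the body and platform were higher, with a median of 0.11 and all 17 values above 0. RPS2, near the channel by which mRNA enters, was the RPS gene with the largest change; its gene is on chromosome 16 from 1962052 to 1964860, minus strand. RPS2 stood at 917.1, 1021, 1014, 897, 913.9 and 885.3 CPM in siNC replicates 1 to 6 and at 1078, 988.5, 1036, 1066, 1176 and 1115 CPM in siZCC replicates 1 to 6, so that only siZCC 2 fell within the siNC range. The log2 fold change was 0.19 (SE 0.0442; Benjamini-Hochberg adjusted edgeR quasi-likelihood p 0.00464). RPS3A, on the platform side, went from 519 CPM (487.5 to 561.4) to 576.7 CPM (541.8 to 594.8), a log2 fold change of 0.13. RPS27, a zinc-binding protein, went from 243.2 CPM (238.2 to 271.7) to 281.9 CPM (250.6 to 299.8), a log2 fold change of 0.16. RPS24, another Diamond-Blackfan anaemia gene, went from 360.6 CPM (336.5 to 387.7) to 397.8 CPM (381.8 to 423.3), a log2 fold change of 0.13. In RPS3A 5 siZCC libraries exceeded all siNC, and in RPS27 and RPS24 4 did.

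In the small subunit head 5 of 14 genes were higher, with a median of 0.10. RPS19, the gene most often mutated in Diamond-Blackfan anaemia, went from a median of 483.4 CPM (474.1 to 531.9) to 549 CPM (499.1 to 573.2), a log2 fold change of 0.13. Its adjusted p in edgeR's quasi-likelihood test moved from 0.0211 to 0.0508 without siNC 6 and to 0.0503 without siZCC 6 (0.00634 to 0.0508 over the 12 fits without 1 library). RPS29, a zinc-binding protein of the head, stood at 71.35 CPM (71.1 to 76.41) and 74.77 CPM (71.85 to 76.2), a log2 fold change of 0.03 that was not called.

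**Figure D4:**
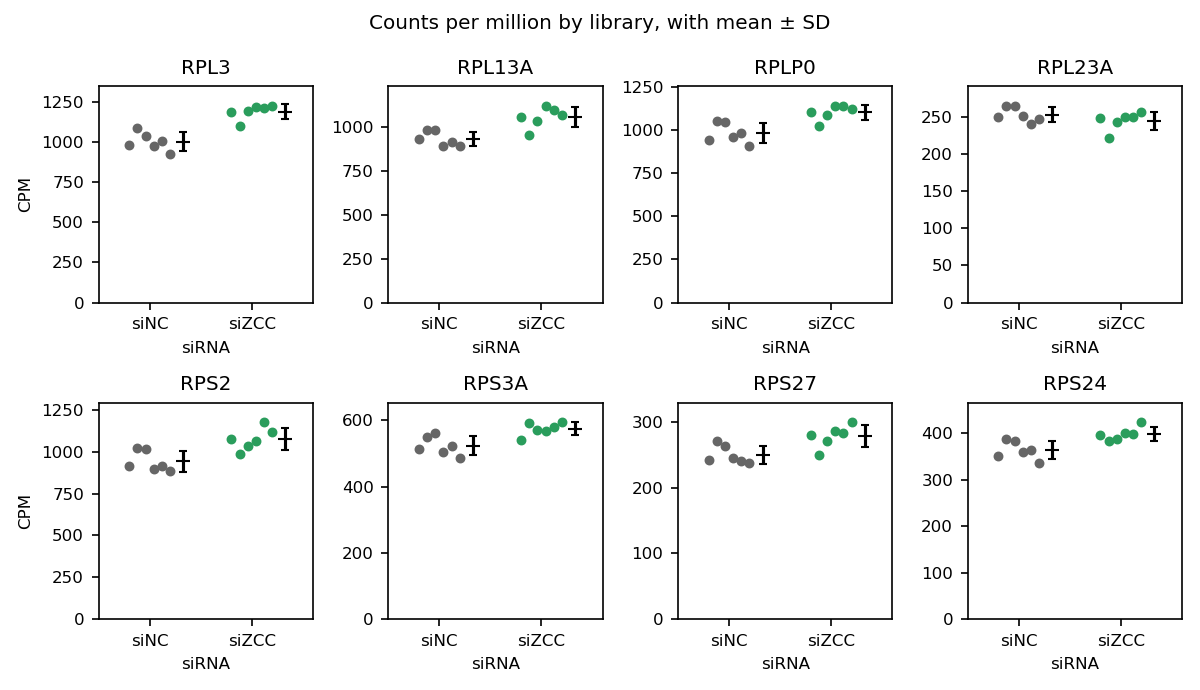
CPM of 8 genes in every library (grey siNC, green siZCC; vertical axes from 0), with black marks for the mean ± SD of 6 libraries. RPL3 is the one gene of these whose groups do not overlap; RPL13A, RPLP0, RPS2, RPS3A, RPS27 and RPS24 are shifted upward with overlap, and RPL23A is not.

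RPS10, RPL36A, RPL17 and RPL26 were counted far below most members, with siNC means of 2.228, 7.414, 12.45 and 20.65 CPM. None of these was called in edgeR's quasi-likelihood test. The log2 fold changes of RPL36A (-0.01), RPL26 (-0.01), RPL17 (-0.00214) and RPS10 (0.02) lay close to 0. These genes also left the common pattern between libraries: the correlation with the mean of the other members within groups was -0.521 for RPL36A, 0.0614 for RPS10, 0.125 for RPL17 and 0.219 for RPL26, while 65 of 77 genes were above 0.8.

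In the annotation each of them shares exon sequence with another gene on the same strand: 39.4% of the exon bases of RPS10 with the readthrough gene RPS10-NUDT3, 24.8% of RPL17 with RPL17-C18orf32, 14.3% of RPL26 with AC135178.2 and 8.4% of RPL36A with RPL36A-HNRNPH2. Such overlap is not particular to genes with low counts: RPS2, for example, shares 14.5% of its exon bases with AC005363.1 and was called higher. The readthrough rows themselves held few counts, with means of 16.25 for RPS10-NUDT3, 31 for RPL17-C18orf32 and 6.083 for RPL36A-HNRNPH2. Pseudogene counts summed to 63.5% of those of RPS10, 42.9% of RPL36A, 23.9% of RPL26 and 15.8% of RPL17. In all, 8 members had pseudogene counts over 10% of their own, RPS2 and RPL23A among them. How reads matching more than 1 gene were treated is not given in the sources used here, and its part in the low counts was not tested. Some members also overlap genes of the opposite strand by over 10% of their exon bases: RPL10 with DNASE1L1 (34.2%) and AC245140.2 (18.5%), RPL30 with AP003352.1 (21.6%), RPL38 with MGC16275 (17.7%), RPS25 with TRAPPC4 (17.6%), RPS28 with KANK3 (17.2%), RPS3A with SH3D19 (11.2%) and RPS6 with AL391834.2 (10.4%). The kit marks strand, but the strand setting of the counting is not given, so the counts of these genes are less certain.

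**Figure D5:**
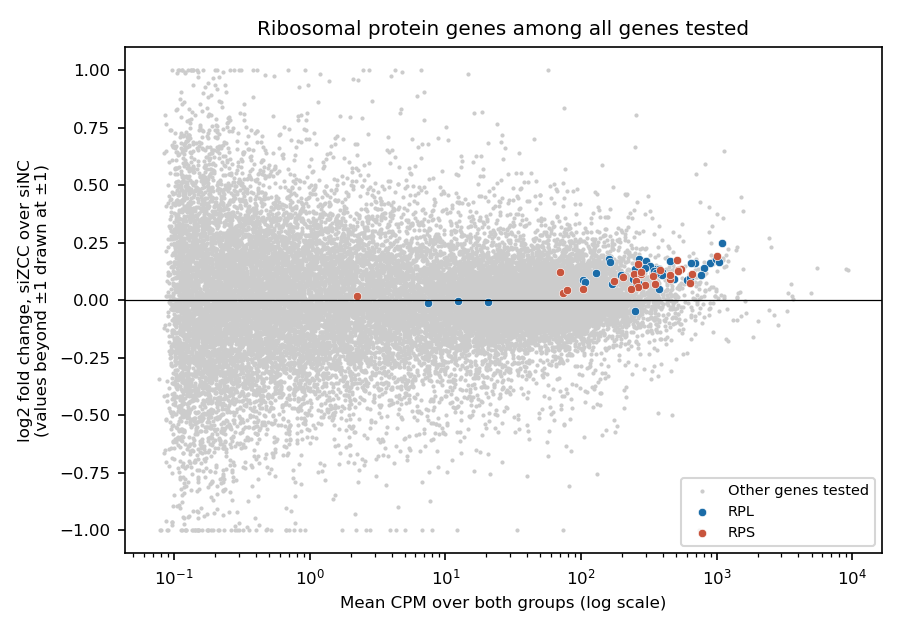
Log2 fold change (vertical, siZCC over siNC, drawn up to ±1) against mean CPM (horizontal, log scale) for RPL genes (blue), RPS genes (red) and all other genes tested (grey). The abundant ribosomal protein genes sit in a narrow band above 0, RPL23A lies below it, and the genes under 21 CPM lie close to 0 or below it.

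Among the members the more abundant genes showed the larger change. Spearman's rho of log2 fold change with level was 0.53 over 77 genes (0.42 in RPL, 0.66 in RPS), and 0.39 over the 69 with at least 100 CPM, against 0.03 over other genes tested. With GC content it was 0.39, against 0.11 in other genes, and with transcript length -0.15. These are descriptions across genes, which share libraries and scaling. Of the 8 members under 100 CPM 1 was called, RPS21.

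Per kilobase of coding transcript, RPLP0 (1159 CPM per kb), RPLP1 (953) and RPL15 (901.5) were the highest RPL genes in siNC and RPS2 (1146) and RPS19 (965.5) were among the highest RPS genes. This order depends on the length used: over all annotated exon bases, RPL13A, RPL7A and RPL8 came first in RPL, and RPS12 stood above RPS19 in RPS.

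Within 28 members lie 59 annotated small nucleolar or Cajal body RNAs, which guide the modification of ribosomal RNA among other targets (19 RPL and 9 RPS hosts). Of the hosts 22 of 28 were higher (78.6%), with a median log2 fold change of 0.13, and of the other genes 26 of 49 (53.1%), with a median of 0.11. Over all genes tested 11.4% were higher. Hosts and other members were not matched for level, with which the change also rose. RPL4, with 5 such RNAs, holds the most, while RPL23A, with 4, is a host that was not called. Genes with a TOP-type start had a median of 0.12 (30 of 46 higher) and those with other starts 0.10 (8 of 16). Outside the ribosomal proteins, 868 tested genes with this start had a median of 0.02, with 21.2% higher and 11.5% lower, and the 12410 with other starts a median of 0.00, with 13.4% higher and 13.5% lower.

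Ribosomal proteins that carry other names were measured alongside. RACK1, a scaffold on the small subunit head, went from a median of 590.7 CPM in siNC to 669.4 CPM in siZCC, a log2 fold change of 0.16 (SE 0.0342; Benjamini-Hochberg adjusted edgeR quasi-likelihood p 0.00359). FAU, a fusion of a ubiquitin-like protein with a small subunit protein, had 0.15 with an adjusted p of 0.0275 in edgeR's test, which moved to between 0.0525 and 0.0652 without any 1 of siNC 1, 4 or 6 or siZCC 1, 4 or 5 (0.00741 to 0.0652 over the 12 fits without 1 library).

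None of the 6 paralogs tested outside the rule was called in edgeR's quasi-likelihood test, and their median was -0.03. RPL7L1 (-0.07), RPL22L1 (-0.08) and RPL26L1 (-0.08) lay below 0 and RPL36AL (0.01), RPL39L (0.01) and RPS27L (0.05) above. RPL7L1 alone had an unadjusted p under 0.05 (0.0213), and it was called lower with the Wald test of DESeq2 (adjusted p 0.0365) and with upper quartile scaling (0.0485), in a range of 0.0365 to 0.690 over 25 alternatives. RPL3L and RPL10L were too low to be tested. Ribosomal protein pseudogenes, mostly processed copies of these mRNAs, had 1225 rows of which 330 were tested. Of those 52 were higher (15.8%, against 11.4% of all genes tested) and 2 lower, with a median of 0.16. The counts of all 1225 rows came to 2.32% of those of the members.

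Of 17 other mRNAs listed as having a TOP motif 8 were higher and 0 lower in edgeR's quasi-likelihood test, with a median of 0.07. Over all genes tested 11.4% were higher and 10.8% lower, and at 100 CPM or more 23.2% and 12.8%. At an unadjusted p under 0.05, 1 was lower (HNRNPA1), where 17% of all genes tested were lower. EEF2, which moves the ribosome along the mRNA, went from a median of 2315 CPM in siNC to 2748 CPM in siZCC, a log2 fold change of 0.23 (SE 0.0394; Benjamini-Hochberg adjusted edgeR quasi-likelihood p 5.14e-04). EEF1A1, which brings aminoacyl-tRNA to the ribosome, went from 5171 to 5788 CPM, a log2 fold change of 0.14 with no overlap of the groups. EEF1B2, EIF3F, EIF3L, EIF4B, PABPC1 and the noncoding GAS5 were the others called, while NPM1 (0.01), EIF3A (-0.01), NAP1L1 (-0.02) and HNRNPA1 (-0.06) were not. EEF1G was too low to be tested.

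Dedicated chaperones each accompany a ribosomal protein to its site. Of 7 such genes 0 were higher and 2 lower in edgeR's quasi-likelihood test, against 11.4% and 10.8% of all genes tested. At an unadjusted p under 0.05, 0 were higher and 4 lower, with LTV1 (-0.14) and PDCD2 (-0.09) added, where 17% of all genes tested were lower. HEATR3, which carries RPL5, went from a median of 14.45 CPM to 12.6 CPM, a log2 fold change of -0.17 (adjusted p 0.00581 in edgeR's quasi-likelihood test), and BCCIP, the partner of RPL23, from 65.97 to 61.37 CPM, a log2 fold change of -0.10. Among 12 regulators of TOP mRNAs and of ribosomal protein transcription 4 were higher and 1 lower. The same shares of all genes, 11.4% and 10.8%, stand beside these counts. MYCN, a transcription factor known to drive ribosome production in neural progenitors, went from 39.01 to 44.24 CPM, a log2 fold change of 0.16, while the related MYC went from 15.73 to 13.97 CPM, a log2 fold change of -0.18 (adjusted p 0.0180 and 0.00222 in edgeR's quasi-likelihood test). Within the low-IL1B libraries the log2 fold change of MYCN was 0.0806 and was not called, and within the high ones it was 0.242. LARP1, RPTOR and RPS6KB2 were the others that were higher, with log2 fold changes of 0.09, 0.10 and 0.11.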

How the data were processed

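Per the labels, 12 samples were lysed in Qiazol and their total RNA was made into libraries with a directional kit (NEBNext Ultra II). The authors deposited whole-number counts per gene symbol; the submitters' processing notes name bcl2fastq 2.17, STAR 2.7.6a, featureCounts 2.0.1 and the build GRCh38. Annotation, strand setting and treatment of reads matching several genes are not given in the sources used here. Groups and replicate numbers come from the sample titles.

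The deposited counts were analysed with edgeR 4.0.16 (R 4.3.3): filterByExpr (24671 genes kept), TMM scaling, quasi-likelihood test without covariates over all 12 libraries, Benjamini-Hochberg over all genes kept, threshold 0.05. SE is the log2 fold change divided by the square root of F. CPM is TMM-scaled; log2 CPM uses a prior count of 2. The biological coefficient of variation was 6.55%, so replicate spread, more than depth, limits most named genes; RPS10 and RPL39L, at 154 to 289 and 84 to 189 counts per library, are limited by depth too. On simulated counts with the real means and library sizes (24366 genes tested), this test called 20% of genes given a log2 change of 0.15, 47.9% for 0.25, 72% for 0.5 and 83.7% for 1, and 0.0248% of those left unchanged. In the simulation 24169 genes were left unchanged, while 22.2% of genes were called in the real data, so its adjustment is stricter. Changed genes were drawn independently and at random levels. These shares are therefore not the power for the ribosomal protein genes. Positions, lengths (median of coding transcripts) and GC content come from GENCODE v29, which held 92.2% of symbols and all 77 members. Alternatives included DESeq2 1.42.0, limma 3.58.1 (voom), other scalings and filters, a GC and length correction, thinning, blocks and each library left out. Chi-square per degree of freedom between libraries of a group was at least 4.99, so none was a copy.

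The members, lists, tests and naming rule were chosen with earlier results of these data known. The rule names, per subunit, the 6 smallest p-values, the 3 largest and 3 smallest changes, the 3 highest levels per kilobase and every negative value, all genes of the stalk, 5S, other-name and paralog lists, and in each other list the 2 smallest p-values among genes called; further genes were named after their values were seen. Some genes that the rule names are not reported here or drawn in the plots of single genes; counts and medians over the members include them.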

Additional observations from a re-analysis of the deposited data

Results flagged for a closer look

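In 50 quantities, 100 groups of 6 libraries were searched for a library far from the others by Dixon's criterion, and 4 were found where chance gives about 5. The total of siNC 4 was the lowest of its group at 90755953 counts, with the other siNC libraries at 109973707 to 120023356. RPL3 in siZCC 2 was the lowest of its group at a log2 CPM of 10.1023, with the others at 10.2178 to 10.2619. RPL11 in siZCC 6 was the highest of its group at 8.59732, with the others at 8.43973 to 8.49451. RPL7L1 in siNC 3 was the highest of its group at 7.74487, with the others at 7.65589 to 7.68914.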

How the results depend on the processing

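No alternative called a member lower, and the median log2 fold change of the members, of RPL and of RPS stayed above 0 in all. The RPS genes called fell from 16 to 9 with upper quartile scaling and to 9 without a filter on low counts. Over all genes tested, 2511 of 24671 and 2278 of 48221 were called higher in these fits, in that order. With the replicate number as a block, 30 members and 8 RPS genes were called, where 2489 of all 24671 genes were called higher. Deviations of same-numbered libraries over all genes tested correlated at -0.077 to 0.0179. Such values show no shared deviation but cannot exclude that the numbers pair libraries. Libraries with the same number lay on opposite sides of the IL1B division in every case. Within the high-IL1B libraries 2043 genes, 4 members, 4 RPL and 0 RPS were called, and within the low-IL1B libraries 1602, 13, 10 and 3. The per-library RPL minus RPS difference was 0.0548 larger in siZCC with medians over genes, against 0.0185 larger with means. Without 1 library, 30 to 57 members, 21 to 38 RPL and 8 to 20 RPS genes were called of 4484 to 5626 genes in all, and the RPL minus RPS difference of medians was 0.00771 to 0.0237.

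Values near 0 changed sign. RPL17 was 0.0024 with scaling without ribosomal protein genes, 0.123 in the low-IL1B libraries and 0.004 with the GC and length correction. In the high-IL1B libraries RPL36A was 0.0133, RPL36AL -0.0174, RPS10 -0.0738 and RPS27L -0.0804; in the low ones RPL26 was 0.00603 and RPL39L -0.0357, and RPL39L was -0.00546 after thinning. Without 1 library RPL17 ran from -0.0501 to 0.0359, RPL26 from -0.0359 to 0.0348, RPL36A from -0.0299 to 0.0103, RPL36AL from -0.0172 to 0.0251, RPL39L from -0.047 to 0.0823 and RPS10 from -0.0211 to 0.0656. The cause was not tested; the IL1B subsets hold fewer libraries. Depth limits RPS10, with 154 to 289 counts per library, and RPL39L, with 84 to 189.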
